A study of Homo sapiens with 6 samples.

Results

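Aminoacyl-tRNA synthetases join each amino acid to the transfer RNA (tRNA) that carries its anticodon, the charging step that every round of translation needs. The genes described here are 36 synthetase genes of the nucleus, 20 whose enzymes work in the cytosol and 16 whose enzymes are imported into mitochondria. They were taken from a fixed list of gene symbols, with the probe set of the highest mean signal standing for each gene. A probe set was named for 32 of the 36, 17 cytosolic and 15 mitochondrial, out of 17687 genes named on the array. MARS1, QARS1, VARS1 and TARS2 were not analysed here.

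RNA came from A431, a human epidermoid carcinoma line known for its many copies of EGFR, the receptor of epidermal growth factor. All cells were grown with 10% serum and then starved for 24 h. The 3 groups were an untreated control, cells given 100 ng/ml of epidermal growth factor (EGF), and cells given that EGF dose together with 10 µM gefitinib, a drug that blocks the kinase of EGFR. Each group had 2 arrays. Harvest was 30 min after treatment, and the labels do not state when gefitinib was added relative to EGF. Replicates are labelled biological, but no label names separate cultures. The p-values therefore reflect only how far these samples scatter, and that scatter may be technical.

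Most cells hold 1 set of synthetases for the cytosol and another for mitochondria. GARS1 and KARS1 are exceptions, since each gene makes the glycine or lysine enzyme of both places, and they are counted here as cytosolic. Several cytosolic enzymes sit together in the multisynthetase complex, held by the scaffold proteins AIMP1, AIMP2 and EEF1E1. Many cytosolic synthetase genes are known targets of ATF4, the transcription factor made when amino acids run short or the integrated stress response is active. WARS1, the tryptophan enzyme, is known as an interferon-induced gene.

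Promoter stretches were read from RefSeq (GRCh38.p14), in which 30 of the 36 genes had an entry, 16 cytosolic and 14 mitochondrial. Each entry runs from 250 bases before to 50 bases after an annotated start, and some genes have more than 1. Position 1 is the first transcribed base. The first 3 stretches are from genes that were higher with gefitinib, printed because each holds a match to TGATGNAA. Their capitals mark that match, which lies on the opposite strand. TGATGNAA is the core of the composite element that ATF4 binds together with C/EBP factors. The 3 stretches lie at chr16:70289627-70289726 (AARS1, minus strand, -220 to -121), chr11:3057418-3057517 (CARS1, minus strand, -94 to 6) and chr9:92293698-92293797 (IARS1, minus strand, -100 to -1).
AARS1: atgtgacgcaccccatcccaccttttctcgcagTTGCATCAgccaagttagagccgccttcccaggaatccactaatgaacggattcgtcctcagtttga
CARS1: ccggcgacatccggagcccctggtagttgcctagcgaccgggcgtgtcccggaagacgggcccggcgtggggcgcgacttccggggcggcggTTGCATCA
IARS1: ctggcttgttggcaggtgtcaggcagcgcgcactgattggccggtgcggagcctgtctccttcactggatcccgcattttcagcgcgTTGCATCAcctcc

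All 3 matches read TTGCATCA, at different distances from the start. The search fixed every letter except that at N, so this likeness follows from how the stretches were picked. The match began at -187 in AARS1, -13 in IARS1 and -2 in CARS1, where it runs past the start. Searched on both strands, TGATGNAA was found in 3 of the 5 genes with an entry among the 6 cytosolic genes called higher with gefitinib. EPRS1 and SARS1 had an entry without a match, and YARS1 had no entry. Among the 5 called lower it was found in 0. It was also found in GARS1, NARS1 and TARS1 among the 4 uncalled cytosolic genes with an entry, in MARS1, and in YARS2 alone of the 14 mitochondrial genes with an entry. Of all 27303 genes with an entry, 4.46% held it in at least 1. A match is a description of the letters and not a binding site.

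A pair of further stretches bears on WARS1 and on the histidine enzymes. The WARS1 stretch is the 150 bases before 1 of its annotated starts, chr14:100375348-100375497 on the minus strand. That start was picked because its entry holds the core of the interferon-stimulated response element. Its capitals mark this core (-55 to -46), found on either strand in 3.57% of all entries. Of all genes with an entry, 4.38% held it in at least 1. The histidine stretch is the whole of the 84 bases between the start of HARS1, which reads leftward, and the start of HARS2, which reads rightward (chr5:140691371-140691454, plus strand). Its capitals mark CCGGAAGT on either strand, a site of ETS factors, found in 4.14% of all entries. It was also found in WARS1, in CARS1, which rose with gefitinib, and in the uncalled NARS1, TARS1, EARS2 and PARS2, and the interferon core also in EARS2. The motifs were searched separately and the capitals of a stretch show only the motif named for it.
WARS1: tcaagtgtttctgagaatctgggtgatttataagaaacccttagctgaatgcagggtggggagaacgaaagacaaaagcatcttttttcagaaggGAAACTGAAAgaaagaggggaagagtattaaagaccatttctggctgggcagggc
HARS1 and HARS2: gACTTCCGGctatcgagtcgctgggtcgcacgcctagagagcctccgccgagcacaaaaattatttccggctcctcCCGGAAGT

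Across probe sets, arrays within a group correlated at 0.991 to 0.994 and arrays of different groups at 0.987 or less. The limit of background on an array was the level below which 95% of its negative-control probe sets lay, between 7.14 and 7.65 on the log2 scale. The epithelial markers EGFR, CDH1, KRT5, KRT14 and EPCAM lay above it on all 6 arrays, 5 of 8 listed markers being measured. EGFR measured 14.42 and 14.38 on the control arrays, 14.44 on each EGF array, and 15.26 and 15.36 with EGF plus gefitinib, a rise of 0.87 ± 0.17 over EGF alone (limma adjusted p = 0.0125), lost without EGF 1, EGF 2 or EGF plus gefitinib 2. Of the markers of other cells, 1 to 2 of 7 fibroblast markers, 1 of 6 leukocyte markers (CD68, which carcinoma cells can also express) and 0 to 1 of 5 endothelial markers lay above it on an array. The leukocyte marker PTPRC and the endothelial marker PECAM1 were within the negative-control range on every array. The summed fibroblast level was 10.02 and 10.12 on the control arrays, 9.28 and 8.97 on the EGF arrays and 9.55 and 9.13 on the EGF plus gefitinib arrays (log2). LUM, a fibroblast marker above the limit on all 6 arrays, measured 9.44 and 9.53, then 8.36 and 7.92, then 8.77 and 8.15. LUM and DCN, the latter within the negative-control range, were the 2 of 7 fibroblast markers called lower with EGF. The LUM call was lost without either control or either EGF array, that of DCN without control 2 or EGF 2. The summed endothelial level was 7.93 and 7.58, then 6.55 and 6.83, then 8.08 and 8.20. It was lowest with EGF, as was CDH5, an endothelial cadherin, which was called lower with EGF (limma adjusted p = 0.0027) and higher with gefitinib added (adjusted p = 0.000901), above its limit on 2 of the 6 arrays. The part of these markers in the results that follow was not tested. Fewer cells of a type and less RNA per cell cannot be told apart in these bulk samples.

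The 2 compartments differed in how well they were measured. Of the 17 cytosolic genes, 16 lay above the negative-control limit on all 6 arrays and TARS3, a second threonine enzyme, did so on 4. Of the 15 mitochondrial genes, 5 did so on all arrays (CARS2, IARS2, RARS2, WARS2 and YARS2), 3 on some (FARS2, HARS2 and NARS2) and 7 on none (AARS2, EARS2, LARS2, MARS2, PARS2, SARS2 and VARS2). A gene within the negative-control range has only an upper bound, so changes of these 7 could not be sized. Levels of different probe sets are not set against each other here.

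**Figure D1:**
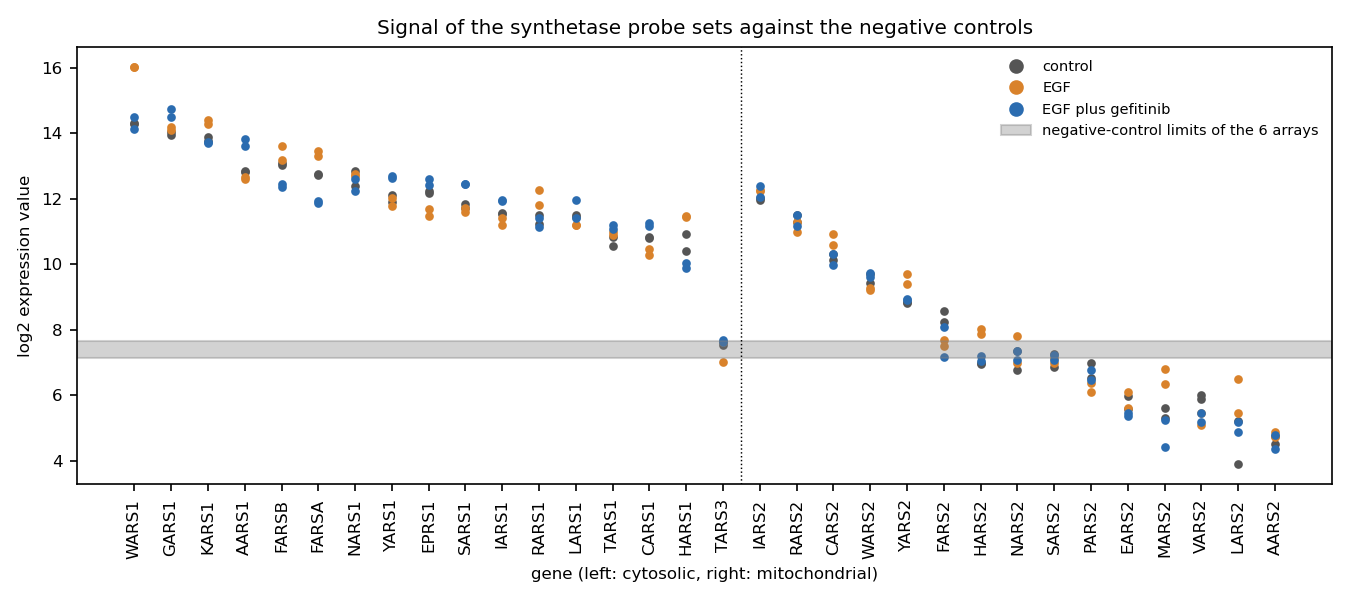
Log2 expression value (vertical axis) of each measured synthetase gene on the 6 arrays, 1 point per array, coloured by group, with the cytosolic genes left and the mitochondrial genes right of the dotted line. The grey band spans the negative-control limits of the 6 arrays (7.14 to 7.65); 16 cytosolic genes and 5 mitochondrial genes lie above the limit on every array.

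The first comparison asked what EGF did to these genes in starved cells. WARS1 rose 3.31-fold, and it was the only cytosolic synthetase gene that changed in the limma fit. Of the mitochondrial genes, HARS2 and YARS2, the histidine and tyrosine enzymes, rose. No synthetase gene was called lower. Thus limma called 1 of 17 cytosolic and 2 of 15 mitochondrial genes at an adjusted p under 0.05, where it called 11.9% of all 21448 transcript probe sets, 6.61% higher and 5.3% lower. Of probe sets above the limit on all arrays, to which 16 of the cytosolic genes belong, 21.2% were called.

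WARS1 measured 14.31 and 14.28 on the control arrays, 16.02 on each EGF array, and 14.48 and 14.14 on the EGF plus gefitinib arrays (log2 values). The EGF arrays stood apart from all others, while the control values lay between those of the EGF plus gefitinib arrays. The rise was 1.73 ± 0.19 (log2 difference ± SE, n = 2 arrays per group, limma adjusted p = 0.00284), and it was called whichever 1 of the 6 arrays was left out (1.71 to 1.74). WARS2, the mitochondrial tryptophan enzyme, measured 9.42 and 9.70 on the control arrays, 9.28 and 9.21 on the EGF arrays and 9.74 and 9.60 on the EGF plus gefitinib arrays. Its difference with EGF was -0.32 ± 0.19, not called (adjusted p = 0.339).

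HARS2 measured 6.96 and 6.98 on the control arrays, 8.02 and 7.86 with EGF, and 7.19 and 7.05 with EGF plus gefitinib. Only the EGF arrays lay above their negative-control limits, so its rise is at least 1.57-fold (fitted 0.97 ± 0.18, limma adjusted p = 0.0151). Leaving out either control array or either EGF array ended the call, and over the 6 fits that each lacked 1 array the difference ran from 0.89 to 1.05. YARS2 measured 8.83 and 8.85 on the control arrays, 9.40 and 9.69 with EGF, and 8.94 and 8.92 with EGF plus gefitinib. Its rise of 0.70 ± 0.18 (1.63-fold) sat at the threshold (adjusted p = 0.0497) and was lost whichever 1 of the 6 arrays was left out.

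Among the genes not called for EGF, several lay near the threshold. HARS1, the cytosolic histidine enzyme, differed by 0.79 ± 0.22 (limma adjusted p = 0.0586), and FARSA, the catalytic subunit of the phenylalanine enzyme, by 0.65 ± 0.17 (adjusted p = 0.0534). EPRS1, which charges both glutamate and proline tRNA, differed by -0.63 ± 0.18 (adjusted p = 0.0721), while MARS2, the mitochondrial methionine enzyme, had an adjusted p of 0.0627 within the negative-control range. LARS2, the mitochondrial leucine enzyme, was not called either (adjusted p = 0.11) and lay within the negative-control range on every array.

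The median log2 difference with EGF was 0.12 for the cytosolic genes, against -0.03 for all transcript probe sets. For the 5 mitochondrial genes above the limit on all arrays it was 0.26 (-0.32 to 0.70). Over all 15 it was 0.18, which is the value of AARS2, a gene within the negative-control range. The sign for the cytosolic genes was not stable: it was -0.11 without control 2 and -0.12 without GARS1 and KARS1. In all, 9 of the 17 cytosolic genes had a positive difference.

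The next comparison addressed the effect of gefitinib added to EGF, and here cytosolic synthetases changed in both directions. It shares the EGF arrays with the comparison of EGF against control. AARS1, EPRS1, CARS1, SARS1, YARS1 and IARS1 rose, by 1.57-fold to 2.12-fold. WARS1, HARS1, FARSA, FARSB and KARS1 fell, by 1.53-fold to 3.27-fold. Of the mitochondrial genes 0 were called higher, and HARS2 and MARS2 fell. The calls thus covered 11 of 17 cytosolic and 2 of 15 mitochondrial genes, where limma called 18.7% of all transcript probe sets, 8.86% higher and 9.81% lower.

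Brightness bears on that contrast. Of the 7642 probe sets above the limit on all arrays, 33.7% were called in this comparison, against 5.42% of those above it on none. Of the synthetase genes above the limit on all arrays, 11 of 16 cytosolic (68.8%) and 0 of 5 mitochondrial genes were called. How far the difference between the compartments follows from brightness was not tested. Of the cytosolic genes, 16 of 17 had EGF plus gefitinib arrays that did not overlap the EGF arrays, TARS3 being the exception, and of the mitochondrial genes 8 of 15. Over all transcript probe sets 57.1% did not overlap, and of those above the limit on all arrays 77.3%.

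**Figure D2:**
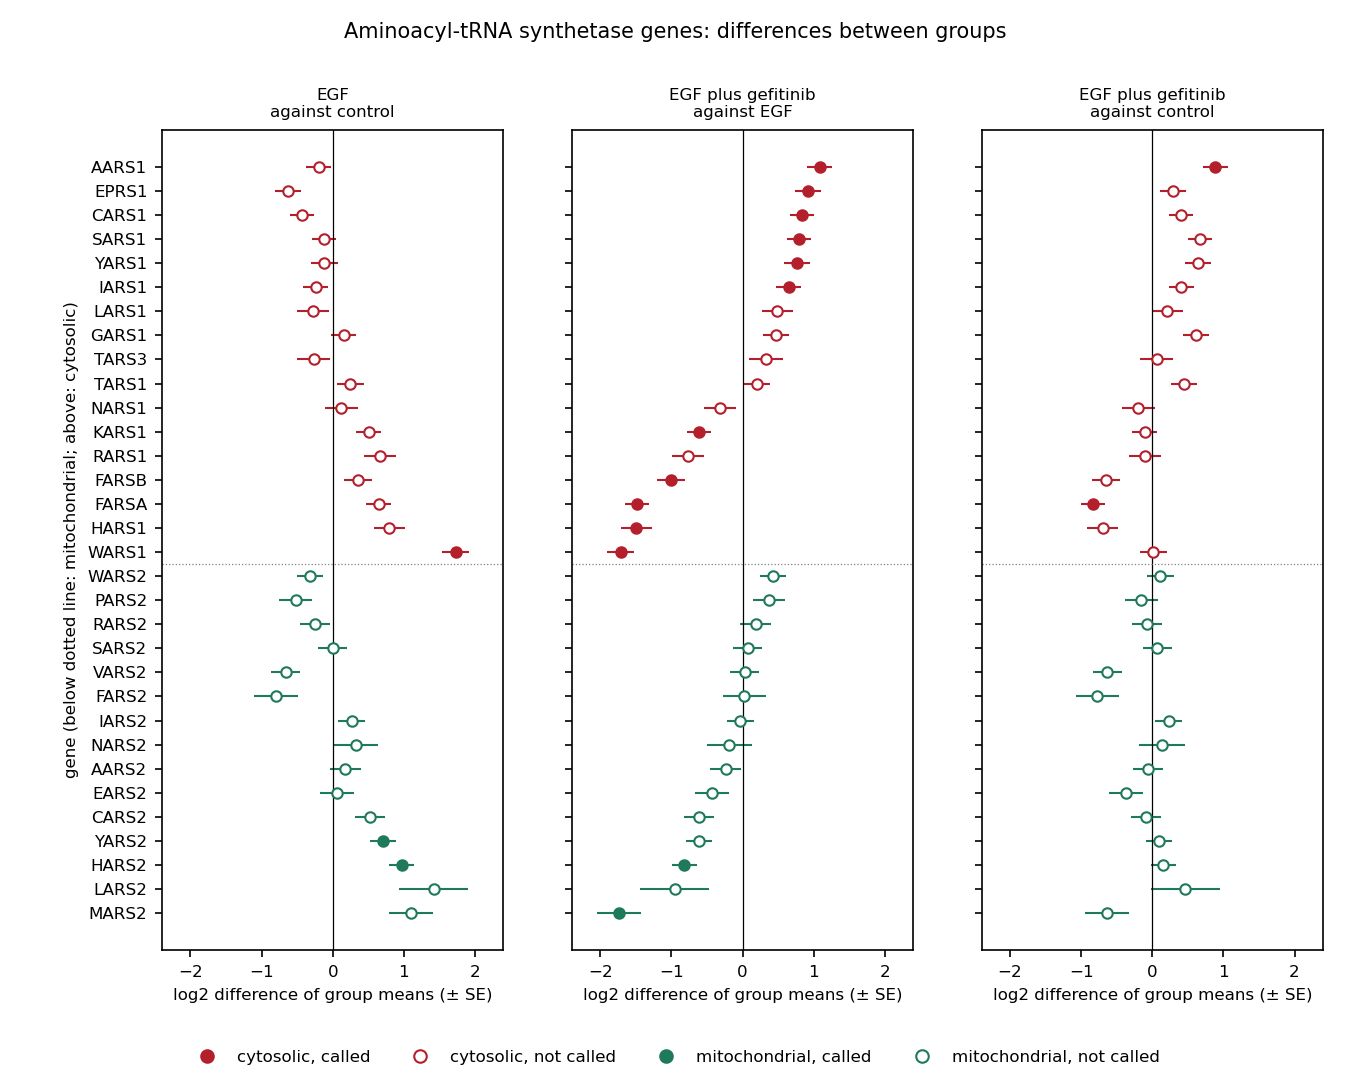
Log2 difference of group means ± SE (horizontal axis) for the 32 measured synthetase genes in the 3 comparisons, with cytosolic genes above and mitochondrial genes below the dotted line, ordered by the difference between EGF plus gefitinib and EGF. Filled points were called by limma at an adjusted p under 0.05: 3 genes for EGF against control, 13 for EGF plus gefitinib against EGF and 2 for EGF plus gefitinib against control.

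Of the genes that rose, AARS1, the alanine enzyme, moved most. It measured 12.82 and 12.85 on the control arrays, 12.61 and 12.66 with EGF, and 13.62 and 13.83 with EGF plus gefitinib. The groups did not overlap, and the EGF plus gefitinib arrays were the highest. The rise over EGF alone was 1.09 ± 0.18 (2.12-fold, limma adjusted p = 0.00625), and it was called whichever 1 of the 6 arrays was left out. AARS2, the mitochondrial alanine enzyme, measured 4.76 and 4.51, then 4.89 and 4.74, then 4.36 and 4.78 in the same order of groups, within the negative-control range throughout.

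EPRS1 measured 12.24 and 12.17 on the control arrays, 11.47 and 11.68 with EGF, and 12.40 and 12.59 with EGF plus gefitinib. CARS1, the cysteine enzyme, measured 10.79 and 10.84, then 10.29 and 10.47, then 11.17 and 11.27 in the same order of groups. In both genes the EGF arrays were the lowest and the EGF plus gefitinib arrays the highest, with no overlap. EPRS1 rose by 0.92 ± 0.18 (adjusted p = 0.0136) and CARS1 by 0.84 ± 0.17 (adjusted p = 0.0167, limma), and both calls were lost without EGF 1 or EGF plus gefitinib 2, and that of CARS1 also without EGF 2.

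SARS1, the serine enzyme, measured 11.84 and 11.71 on the control arrays, 11.71 and 11.59 with EGF, and 12.44 and 12.46 with EGF plus gefitinib. YARS1, the tyrosine enzyme, measured 12.11 and 11.91, then 11.78 and 12.01, then 12.64 and 12.68 in that order of groups. In these genes the control and EGF arrays overlapped, and the EGF plus gefitinib arrays lay above both. The rises over EGF alone were 0.79 ± 0.17 for SARS1 (adjusted p = 0.019) and 0.76 ± 0.18 for YARS1 (adjusted p = 0.028, limma). Both calls were lost without EGF 1, EGF 2, EGF plus gefitinib 1 or EGF plus gefitinib 2 in turn.

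IARS1, the isoleucine enzyme, measured 11.53 and 11.56 on the control arrays, 11.42 and 11.19 with EGF, and 11.94 and 11.97 with EGF plus gefitinib. The EGF plus gefitinib arrays were again the highest, but the rise was small (0.65 ± 0.18, limma adjusted p = 0.0432) and was lost whichever 1 of the 6 arrays was left out. LARS1, the leucine enzyme, and GARS1 had positive differences of 0.49 ± 0.22 (adjusted p = 0.182) and 0.47 ± 0.18 (adjusted p = 0.125), not called. TARS1, the threonine enzyme, differed by 0.20 ± 0.19 and TARS3 by 0.33 ± 0.23, also not called.

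Of the genes that fell and lay above the negative-control limit on all arrays, WARS1 moved most, back to values on either side of its control. Its difference from EGF alone was -1.71 ± 0.19 (3.27-fold lower, limma adjusted p = 0.00156), called whichever 1 array was left out, and its difference from the control was 0.02 ± 0.19 (adjusted p = 0.972).

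The phenylalanine enzyme of the cytosol is built from the catalytic subunit FARSA and the second subunit FARSB, and both fell. FARSA measured 12.73 and 12.74 on the control arrays, 13.46 and 13.30 with EGF, and 11.92 and 11.88 with EGF plus gefitinib. FARSB measured 13.03 and 13.08, then 13.62 and 13.20, then 12.45 and 12.36. For both subunits the EGF arrays were the highest and the EGF plus gefitinib arrays the lowest, below the control. The falls from EGF alone were 2.79-fold for FARSA (-1.48 ± 0.17, limma adjusted p = 0.00184), called whichever 1 array was left out, and 2.005-fold for FARSB (-1.003 ± 0.20, adjusted p = 0.0141), lost without EGF 1 or either EGF plus gefitinib array. FARS2, the single-chain mitochondrial enzyme, measured 8.56 and 8.24 on the control arrays, 7.70 and 7.51 with EGF, and 8.08 and 7.18 with EGF plus gefitinib, a difference from EGF alone of 0.03 ± 0.31.

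HARS1 measured 10.41 and 10.92 on the control arrays, 11.46 and 11.45 with EGF, and 10.04 and 9.89 with EGF plus gefitinib. The order of the groups was that of FARSA, with the EGF plus gefitinib arrays lowest and no overlap. Its fall of 1.49 ± 0.22 on the log2 scale (2.81-fold, limma adjusted p = 0.00414) was called whichever 1 array was left out. HARS2, its neighbour across the 84 bases shown above, fell by 0.82 ± 0.18 (at least 1.38-fold, adjusted p = 0.0183) and was not called without EGF 1, EGF 2 or EGF plus gefitinib 2. Of 14 cytosolic and mitochondrial pairs for the same amino acid, only the histidine pair had both genes called. No other pair could, because HARS2 and MARS2 were the only mitochondrial genes called and MARS1 was not analysed. HARS1 and HARS2 are also close paralogs, and whether either probe set reads the other transcript was not tested.

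KARS1 measured 13.76 and 13.89 on the control arrays, 14.40 and 14.27 with EGF, and 13.71 and 13.73 with EGF plus gefitinib. The EGF arrays stood above the others, and the fall of 0.61 ± 0.17 was at the threshold (limma adjusted p = 0.0484) and was lost whichever 1 array was left out. RARS1, the arginine enzyme, showed its highest values with EGF too, and a difference of -0.76 ± 0.23 that was not called (adjusted p = 0.0585). NARS1, the asparagine enzyme, differed by -0.32 ± 0.23, not called.

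MARS2 measured 5.32 and 5.62 on the control arrays, 6.33 and 6.80 with EGF, and 5.23 and 4.43 with EGF plus gefitinib. It lay within the negative-control range on every array, so the fitted fall of 1.73 ± 0.31 (limma adjusted p = 0.00875) has no fold, and it was lost without EGF 2 (adjusted p = 0.0595). YARS2 and CARS2, the mitochondrial tyrosine and cysteine enzymes, differed by -0.61 ± 0.18 (adjusted p = 0.0581) and -0.61 ± 0.21 (adjusted p = 0.0923), not called, while their cytosolic partners YARS1 and CARS1 rose. Whether the 2 enzymes of an amino acid differed in their response was not tested. Of the other mitochondrial genes above the limit on all arrays, IARS2 differed by -0.03, RARS2 by 0.18 and WARS2 by 0.43, none of them called.

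**Figure D3:**
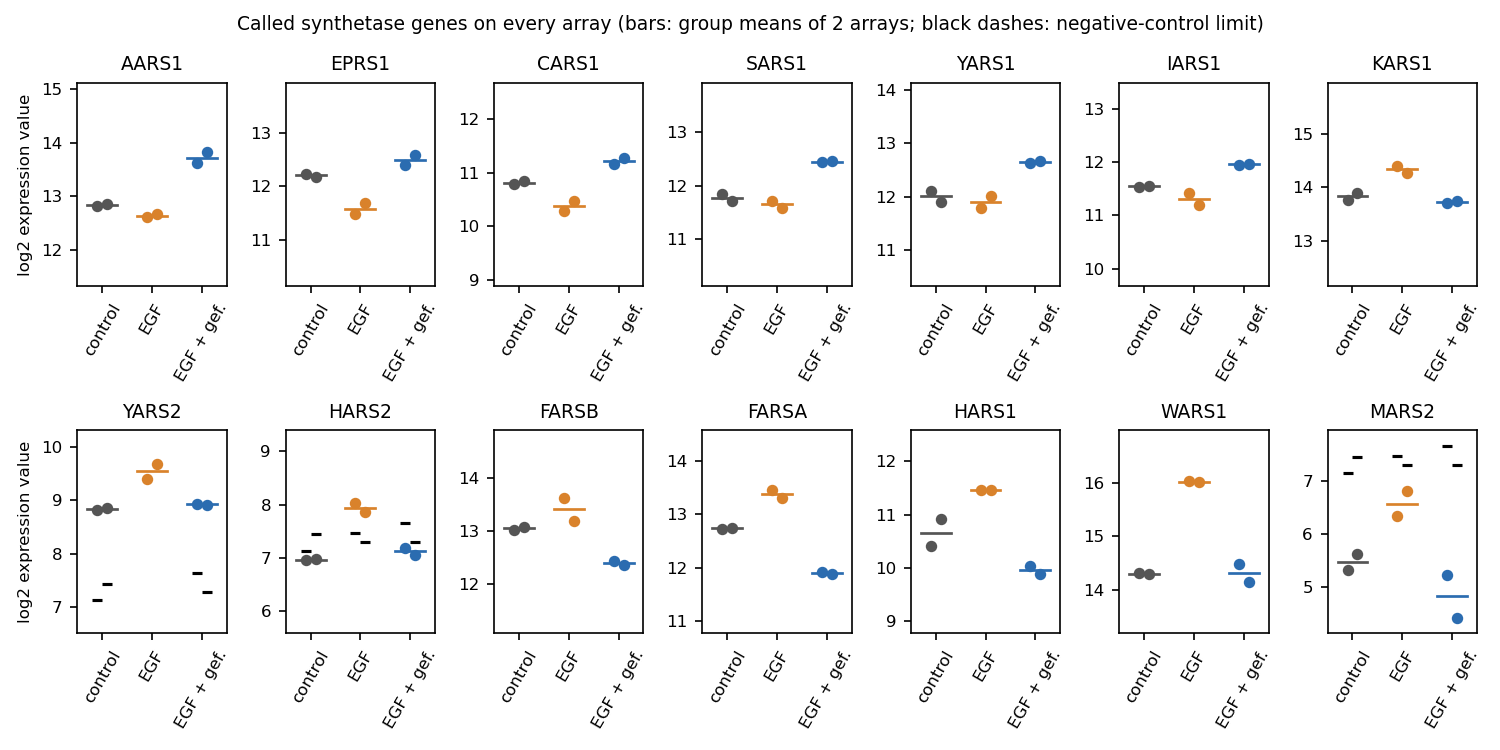
Log2 expression value (vertical axis, the same span in every panel) of the 14 synthetase genes called in at least 1 comparison, with 1 point per array, a bar at each group mean of 2 arrays, and black dashes at the negative-control limit of an array where the gene is dim. AARS1, EPRS1, CARS1, SARS1, YARS1 and IARS1 are highest with EGF plus gefitinib, while KARS1, YARS2, HARS2, FARSB, FARSA, HARS1, WARS1 and MARS2 are highest with EGF.

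The median log2 difference between EGF plus gefitinib and EGF was 0.33 for the cytosolic genes and -0.03 for the 5 mitochondrial genes above the limit on all arrays, against 0.05 for all transcript probe sets. Of the members of the multisynthetase complex that were measured, EPRS1 and IARS1 rose, KARS1 fell, and LARS1 and RARS1 were not called. AIMP1, the 1 measured scaffold protein of that complex, rose by 0.75 ± 0.18 with EGF (limma adjusted p = 0.0359) and fell by 1.28 ± 0.18 with gefitinib added (adjusted p = 0.00337). Its rise was lost without either control or either EGF array, and its fall held in all 6 fits. Synthetases fall into the structural classes I and II, which have unrelated catalytic domains. Of 15 measured class I genes 3 rose and 2 fell, and of 16 class II genes 2 rose and 5 fell. The shares called were 33.3% and 43.8%, against 18.7% of all probe sets and 33.7% of those above the limit on all arrays. Only 11 of the class I and 9 of the class II genes were above it on all arrays, so each class mixes bright and dim genes. EPRS1, which joins a domain of each class, was counted in neither. With 1 array left out, 0 to 2 class I genes rose and 1 to 2 fell, and 1 to 2 class II genes rose and 2 to 4 fell.

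The third comparison set EGF plus gefitinib against the untreated control and shares its arrays with both others. AARS1 was 1.85-fold above the control (0.89 ± 0.18, limma adjusted p = 0.0429) and FARSA 1.78-fold below it (-0.83 ± 0.17, adjusted p = 0.0465). These were the only calls, 2 of 17 cytosolic and 0 of 15 mitochondrial genes, where limma called 3.89% of all transcript probe sets, 2.19% higher and 1.7% lower. Both calls were lost whichever 1 of the 6 arrays was left out. Differences from the control near the threshold were those of SARS1 (0.67 ± 0.17, adjusted p = 0.0806), YARS1 (0.65 ± 0.18, adjusted p = 0.101) and GARS1 (0.62 ± 0.18, adjusted p = 0.107). FARSB (-0.65 ± 0.20, adjusted p = 0.122) and HARS1 (-0.70 ± 0.22, adjusted p = 0.123) lay on the other side. The medians were 0.21 for the cytosolic genes and 0.09 for the 5 mitochondrial genes above the limit on all arrays, against 0.01 for all transcript probe sets.

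Other genes of tRNA supply and of the amino acid response were counted beside the synthetases. Of 28 measured genes of the amino acid response, 3 rose and 6 fell with EGF (32.1% called, against 11.9% of all and 21.2% of bright probe sets, those above the limit on all arrays). With gefitinib added to EGF 19 rose and 1 fell (71.4%, against 18.7% and 33.7%), and 14 to 18 rose when 1 array was left out. Against the control 15 were higher and 0 lower (53.6%, against 3.89% and 6.97%). That count was 11 without either EGF array, 5 without EGF plus gefitinib 1, and 0 without EGF plus gefitinib 2 or either control array. The list's median log2 differences were -0.31, 1.19 and 1.11 in the 3 comparisons. For EGF against control, the number that fell was 3 without either control array or EGF 1, and 1 without EGF 2, and the number that rose was 1 in each of these 4 fits. ATF4 itself measured 13.35 in the control, 12.89 with EGF and 14.40 with EGF plus gefitinib (group means). It rose by 1.51 ± 0.17 over EGF alone (limma adjusted p = 0.00158) and did not pass the test for EGF against control (-0.46 ± 0.17, adjusted p = 0.132). ASNS, asparagine synthetase, rose 5.90-fold over EGF alone, PPP1R15A, a phosphatase subunit that dampens the integrated stress response, 4.44-fold, and CTH, of cysteine synthesis, at least 3.36-fold. NUPR1, a stress-induced chromatin protein, rose 34.2-fold over EGF alone, but it was also called lower with EGF than in the control. Between EGF plus gefitinib and the control, the largest log2 difference of any gene in this list was 2.79. The 1 gene that fell was ALDH18A1, of proline synthesis.

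Of 26 measured genes that process and modify tRNA, 12 rose and 0 fell with EGF, and 0 rose and 13 fell with gefitinib added to EGF, 46.2% and 50% of the list against the same shares of all and of bright probe sets. Only 16 of the 26 lay above the limit on all arrays, and 6 did so on none. TRNT1 and TRMT61A, both called higher with EGF, lay within the negative-control range there and in the control, so their rises have no fold. The count that rose with EGF was 2 without control 1 or EGF 1, 4 without control 2 and 3 without EGF 2, while 10 to 12 fell with gefitinib added when 1 array was left out. Against the control 0 were higher and 4 lower, and 0 were called when any array was left out. The list's median log2 differences were 0.61, -0.73 and -0.23. POP1, a protein of RNase P, which trims the 5′ end of tRNA, rose 3.51-fold with EGF and fell 6.38-fold with gefitinib added. PUS7, a pseudouridine synthase, rose 2.43-fold and fell 4.38-fold, NSUN2, a tRNA methyltransferase, rose 2.57-fold and fell 4.40-fold, and TRMT10C, of mitochondrial tRNA processing, rose 2.14-fold and fell 2.99-fold. TRMT6, of another tRNA methyltransferase, fell 3.69-fold with gefitinib added. These falls and the rise of POP1 held in all 6 fits that lacked 1 array. The rise of PUS7 was lost without EGF 2, that of NSUN2 without control 1 or EGF 1, and that of TRMT10C without either control or either EGF array.

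For RNA polymerase III, which transcribes tRNA genes, 6 of 18 measured genes rose with EGF and 1 fell, and 1 rose and 4 fell with gefitinib added. The share called was 38.9% with EGF, against 11.9% of all and 21.2% of bright probe sets. With gefitinib added it was 27.8%, between the 18.7% of all and the 33.7% of bright probe sets. With 1 array left out, 1 to 2 rose with EGF without either control or either EGF array, and 2 to 3 fell with gefitinib added over the 6 fits. The list's medians were 0.58, -0.42 and 0.13. The subunit POLR3G rose at least 2.29-fold with EGF and fell at least 2.02-fold with gefitinib added. BDP1, of the same list, rose 2.10-fold with EGF and did not fall with gefitinib added (0.18 ± 0.18, not called). It stayed 2.39-fold above the control. The rise of BDP1 was lost without either control or either EGF array, and its excess over the control without either array of those groups. POLR3D rose 2.62-fold and POLR3F 2.24-fold with EGF (limma adjusted p = 0.0115 and 0.0126). The POLR3D rise was lost without either control or either EGF array, that of POLR3F without control 1 or either EGF array. GTF3C6 fell 3.21-fold with gefitinib added (limma adjusted p = 0.00243), called whichever 1 array was left out. MAF1, the repressor of the polymerase, fell 1.85-fold with EGF and then rose 1.58-fold. The fall of MAF1 was lost without either control or either EGF array, and its rise whichever 1 array was left out, while both POLR3G calls held in all 6 fits. Of 9 genes of tRNA editing and indirect charging, 0 were called for EGF. With gefitinib added, SEPSECS, of selenocysteine tRNA synthesis, rose at least 1.55-fold and QRSL1, of mitochondrial glutamine tRNA charging, fell 1.62-fold. The SEPSECS call was lost without EGF plus gefitinib 1, and that of QRSL1 whichever 1 array was left out. MYC, a transcription factor that drives growth and translation genes, measured 12.10 in the control, 13.62 with EGF and 12.83 with EGF plus gefitinib (group means), a rise of 2.88-fold with EGF and a fall of 1.74-fold with gefitinib added (limma adjusted p = 0.00325 and 0.0201). The fall was lost without EGF 1, EGF 2 or EGF plus gefitinib 2.

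**Figure D4:**
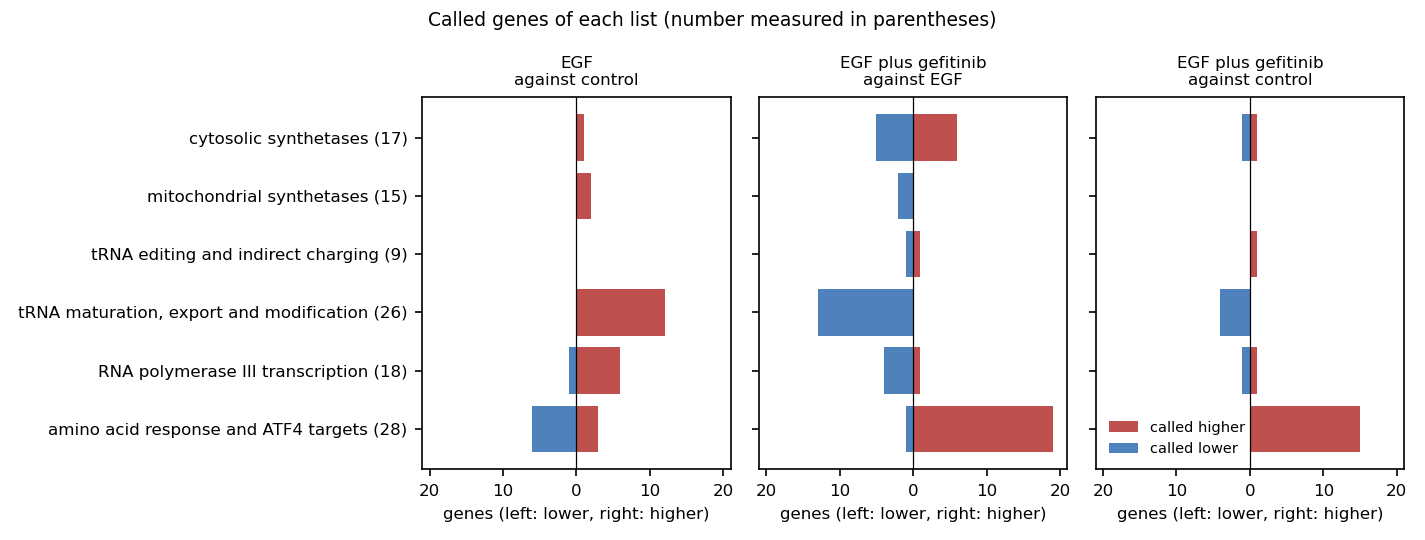
Number of genes called by limma at an adjusted p under 0.05 in each list (horizontal axis, lower to the left and higher to the right of 0) in the 3 comparisons, with the number measured in parentheses. With gefitinib added to EGF, 6 of the 17 cytosolic synthetases are higher, 5 lower and 6 not called, while 19 of 28 amino acid response genes are higher and 13 of 26 tRNA processing genes are lower.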

How the data were processed

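RNA of 6 arrays of A431 cells was analysed, 2 each for control, EGF and EGF plus gefitinib. The authors deposited values on a log2 scale, and the submitters' processing notes name Transcriptome Analysis Console. How background was corrected and how probe sets were summarized and normalized, and the version, were not given in the labels. The scale was judged from the range, 1.58 to 18.9. They were used as deposited, and the number of arrays limits their precision.

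After 2903 control probe sets were left out, 21448 transcript probe sets were tested, 17709 of them with 1 gene symbol in the platform annotation and 3739 unnamed. A single limma 3.58.1 fit in R 4.3.3 (lmFit, eBayes, 3 group means, 3 residual degrees of freedom) gave two-sided p-values, adjusted by the Benjamini-Hochberg method over all 21448 and called under 0.05. The fit was tested on simulated data. A gene at or below the 95th percentile of the negative controls on the 2 arrays of a group is known only as a bound. Its fold was taken against that limit and is written "at least".

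The members and lists were chosen with earlier results of these data known. The 14 genes called in any comparison, and the partners of those that moved most, are given on every array. Of each other list up to 4 called genes with the largest moderated statistic were eligible for naming, beside ATF4 and MYC. ALDH18A1 was named after their values were seen. Alternatives were median centring, quantile normalization, a replicate block, a filter on dim probe sets, fits of 4 arrays, an intensity trend, leaving out each array, and leaving out GARS1 and KARS1.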

Additional observations from a re-analysis of the deposited data

How the results depend on the processing

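With 2 arrays per group, most calls were lost without at least 1 of the arrays. Leaving out 1 array leaves an arm with a single array, which is then assumed to vary like the other groups. The synthetase genes called then numbered 1 to 3 for EGF against control (3 with all arrays), 5 to 11 for EGF plus gefitinib against EGF (13) and 0 for EGF plus gefitinib against control (2), where limma gave 5 to 11 of the 32 genes an unadjusted p under 0.05. For EGF plus gefitinib against EGF the count was 5 without EGF 1, 6 without EGF 2, 8 without EGF plus gefitinib 1 and 5 without EGF plus gefitinib 2. No called gene changed sign under any of these alternatives. For EGF against control the count became 5 with median centring, 10 with dim probe sets left out and 11 with an intensity trend. For EGF plus gefitinib against control it was 7 with dim probe sets left out, 7 with an intensity trend, and 0 with the replicate block or with only the 4 arrays compared. The filtered fit tested fewer probe sets (9211), and 42.8% and 27.6% of those kept were called in these 2 comparisons. The counts of the other fits are given without that share, so they may follow the array as a whole. Arrays of the same number did not deviate together (correlations -0.04 to 0.02), and the replicate block gave 2, 11 and 0 calls in the 3 comparisons. The cytosolic median for EGF against control ran from -0.11 to 0.14 without 1 array and was -0.12 without GARS1 and KARS1. For EGF plus gefitinib the cytosolic median ran from 0.21 to 0.42 against EGF and from 0.19 to 0.39 against control.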
